A study of Rattus norvegicus with 3 samples.

Results

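The cytokine, chemokine and interferon system was described in 3 single somata of cultured rat hippocampal neurons. Its genes were taken by name from the annotation of the array: every probe set with exactly 1 gene symbol counted where that symbol began with Ccl, Cxcl, Cx3c, Ccr, Cxcr, Il or Ifn and a fitting number or letter, began with Tnf, or was Clcf1. This gave 129 genes with 170 probe sets, out of 14218 genes with 20832 probe sets. By their symbols, 62 were ligands, 56 were receptors and 11 were antagonists, binding proteins or proteins induced by TNF. The receptors include the decoy or soluble proteins Il1r2, Il13ra2, Il22ra2 and Tnfrsf11b. All 129 gene numbers matched the RefSeq genes of assembly GRCr8, with the same symbol.

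Each array held the amplified RNA of 1 soma, labelled as 1 cell body from a neuron. The published study calls its collected neurons pyramidal and shows a soma drawn off with a glass pipette. The labels of the 3 somata do not name the type of neuron. The neurons came from Sprague-Dawley rat embryos at embryonic day 19 and had spent 14 days in primary culture, a dispersed culture in which glia can grow beside neurons. The 3 somata formed 1 group without a control, numbered here as cells 1, 2 and 3 by their labelled replicate. Animals and dishes are not named, so that the spread between the cells may be technical in part, and no p-value was computed.

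Cytokines are small secreted or membrane-bound proteins that carry signals between cells. Chemokines (Ccl, Cxcl, Cx3cl) act on receptors coupled to G proteins and guide moving cells, interleukins and interferons act mostly through receptors that recruit Jak kinases and Stat factors, and members of the TNF superfamily bind trimeric receptors that feed into NF-kB signalling. In the brain, microglia and astrocytes are the classical sources of most of these ligands, while neurons are known for fractalkine (Cx3cl1), whose receptor Cx3cr1 is found on microglia. The comparison of ligands with receptors asks which side of this exchange reads higher in the cell body of a neuron.

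Levels are the deposited log2 values, with the median over the probe sets of a gene, and percentiles within the array, where the median gene stands at 50. Probe affinity enters a percentile along with the amount of RNA, so that an order between genes is an order of readings and not of transcript numbers. The same gene can be compared between cells. A gene was called above background on an array where its value exceeded the 95th percentile of 144 silent genes, which are olfactory, vomeronasal and taste receptors and products of organs such as pancreas and mammary gland. Background lay at 9.58, 10.03 and 9.38 log2 in cells 1, 2 and 3.

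As a check of the label, the 14 neuron markers had median percentiles of 85.7, 84.8 and 85.9 in cells 1, 2 and 3. Of these, 4, 2 and 7 were above background. By median over the cells they ran from 24.7 (Syt1) and 28.7 (Map2) to 99.3 (Mapt). For all marker counts given here, the shares of all genes above background were 8%, 5.7% and 11.3%. Of the 13 microglia markers measured, 4 were above background in cell 1 and 0 in cells 2 and 3, and the list had medians of 51.6, 50.3 and 34.4. The 4 were Tyrobp, C1qc, Csf1r and Itgam, at percentiles 99.3, 99.01, 97.0 and 97.0 in cell 1, and the others ran from 1.65 (Aif1) to 85.2 (Cd68) there. Cd68 and Ptprc were also highest in cell 1, at 85.2, 30.4 and 12.1 and at 77.0, 7.45 and 19.9. The rest were not: P2ry12 (13.8, 92.5 and 34.4), Tmem119, Aif1, C1qa and Ctss were highest in cell 2, and C1qb and Laptm5 in cell 3. Of the 8 astrocyte markers, 2 were above background in cell 1 and 0 in cells 2 and 3. Of the 7 endothelial markers, 1, 2 and 2 were above background, and of the 8 markers of T and B cells 1, 0 and 0. The 7 markers of excitatory neurons had medians of 54.4, 51.2 and 94.7.

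The sequences upstream of the genes on which the results turn are given first, from the RefSeq promoter table of build GRCr8, each from 250 bases before to 50 bases after the start of the gene. Il15, Ifnar2 and Tnfaip8l2 are shown because they were above background in every cell, Cx3cl1 because it is the neuronal chemokine that read highest in cell 3, and the neighbours Cxcl9, Cxcl10 and Cxcl11 because 1 of them read high in a single cell. Capitals mark, on either strand, the interferon-stimulated response element (ISRE, GAAANNGAAA), the gamma-activated site bound by Stat factors (GAS, TTCNNNGAA), the TATA box (TATAAA) and the NF-kB motif, where N stands for any base.
Il15 (chr19:42544456-42544755, plus strand): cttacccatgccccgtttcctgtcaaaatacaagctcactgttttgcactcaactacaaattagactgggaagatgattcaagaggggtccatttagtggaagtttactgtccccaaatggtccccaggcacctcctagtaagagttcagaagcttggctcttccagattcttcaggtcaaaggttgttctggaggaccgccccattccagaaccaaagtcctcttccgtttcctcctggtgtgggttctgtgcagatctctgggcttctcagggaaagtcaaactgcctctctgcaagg
Ifnar2 (chr11:44099520-44099819, plus strand): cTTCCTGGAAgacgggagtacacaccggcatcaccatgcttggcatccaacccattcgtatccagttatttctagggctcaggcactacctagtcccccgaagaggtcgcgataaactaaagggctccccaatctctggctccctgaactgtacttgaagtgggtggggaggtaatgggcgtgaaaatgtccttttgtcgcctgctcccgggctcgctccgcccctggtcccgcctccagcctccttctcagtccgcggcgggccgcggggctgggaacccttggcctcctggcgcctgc
Tnfaip8l2 (chr2:185415687-185415986, minus strand): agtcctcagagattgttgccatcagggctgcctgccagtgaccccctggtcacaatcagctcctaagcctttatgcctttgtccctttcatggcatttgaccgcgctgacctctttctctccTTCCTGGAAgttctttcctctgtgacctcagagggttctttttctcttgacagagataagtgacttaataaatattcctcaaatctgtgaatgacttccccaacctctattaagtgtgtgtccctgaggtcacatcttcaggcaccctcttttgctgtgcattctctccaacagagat
Cx3cl1 (chr19:10242771-10243070, minus strand): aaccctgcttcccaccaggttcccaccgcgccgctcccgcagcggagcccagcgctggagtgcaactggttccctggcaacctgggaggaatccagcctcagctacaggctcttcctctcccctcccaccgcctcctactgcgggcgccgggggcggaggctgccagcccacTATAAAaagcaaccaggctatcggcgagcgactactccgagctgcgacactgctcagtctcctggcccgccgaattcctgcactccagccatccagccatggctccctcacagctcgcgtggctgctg
Cxcl9 (chr14:16006916-16007215, plus strand): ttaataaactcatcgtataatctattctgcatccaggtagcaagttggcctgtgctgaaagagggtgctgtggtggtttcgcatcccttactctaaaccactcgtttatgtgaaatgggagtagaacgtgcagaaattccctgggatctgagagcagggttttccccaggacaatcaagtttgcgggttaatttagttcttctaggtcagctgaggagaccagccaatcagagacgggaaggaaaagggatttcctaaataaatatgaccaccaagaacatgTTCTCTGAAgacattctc
Cxcl10 (chr14:15988816-15989115, plus strand): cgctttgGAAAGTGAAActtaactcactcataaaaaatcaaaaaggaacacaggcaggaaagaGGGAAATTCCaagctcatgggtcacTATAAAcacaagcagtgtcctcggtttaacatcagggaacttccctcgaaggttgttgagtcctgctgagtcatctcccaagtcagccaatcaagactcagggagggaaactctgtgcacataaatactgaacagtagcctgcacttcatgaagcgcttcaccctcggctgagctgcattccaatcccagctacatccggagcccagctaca
Cxcl11 (chr14:15973478-15973777, plus strand): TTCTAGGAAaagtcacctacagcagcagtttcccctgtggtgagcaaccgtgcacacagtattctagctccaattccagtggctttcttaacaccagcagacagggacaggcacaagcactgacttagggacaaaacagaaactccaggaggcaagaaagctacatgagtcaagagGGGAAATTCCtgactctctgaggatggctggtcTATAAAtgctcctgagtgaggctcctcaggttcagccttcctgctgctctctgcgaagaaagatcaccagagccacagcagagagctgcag

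No match to these motifs was found in the window of Il15. Ifnar2 and Tnfaip8l2 each held 1 GAS, starting 249 and 128 bases before the start, and Cx3cl1 held a TATA box 78 bases before it. Cxcl10 held an ISRE, an NF-kB motif and a TATA box, and Cxcl11 held a GAS, an NF-kB motif and a TATA box, whereas Cxcl9 held 1 GAS after the start. A match is a description of letters and not a site of binding.

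The median ligand stood lower on each array than the median receptor, by a distance that differed widely between the cells. The 62 ligands had median percentiles of 50.4, 42.6 and 32.5 in cells 1, 2 and 3 (41.8 ± 8.997, SD, n = 3 cells). The 56 receptors had medians of 51.8, 58.7 and 43.1 (51.2 ± 7.82, SD, n = 3 cells). The receptor median was thus above the ligand median by 1.38, 16.2 and 10.6 percentile points, which is 9.39 ± 7.47 (SD, n = 3 cells) and in the same direction in 3 of 3 cells. The ligand median was highest in cell 1 and lowest in cell 3. This order was shared by the medians of the microglia markers (51.6, 50.3 and 34.4) and the astrocyte markers (62.4, 41.4 and 30.7). The endothelial markers (75.3, 63.5 and 46.1) and the markers of T and B cells (68.6, 41.7 and 40.1) shared it too. The neuron markers were level (85.7, 84.8 and 85.9), and those of excitatory neurons were highest in cell 3 (54.4, 51.2 and 94.7). Single markers went other ways, such as Gfap of astrocytes (14.9, 68.0 and 47.8) and Esam of endothelium (81.5, 99.1 and 97.7). The part of other cell types in the ligand median was not tested.

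Single genes of both roles spread over most of the array. The middle 50% of the ligands reached from percentile 23.0 to 78.2 in cell 1 and from 17.9 to 56.5 in cell 3, and that of the receptors from 23.3 to 73.7 and from 21.9 to 64.9. Above percentile 50 stood 31, 26 and 22 of the 62 ligands and 29, 30 and 24 of the 56 receptors. An exact sign test over 3 cells cannot give a two-sided p below 0.25, and none was run. The 144 silent genes had medians of 36.5, 38.4 and 37.0, so that the ligand median of cell 3 lay under that of the silent genes.

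**Figure D1:**
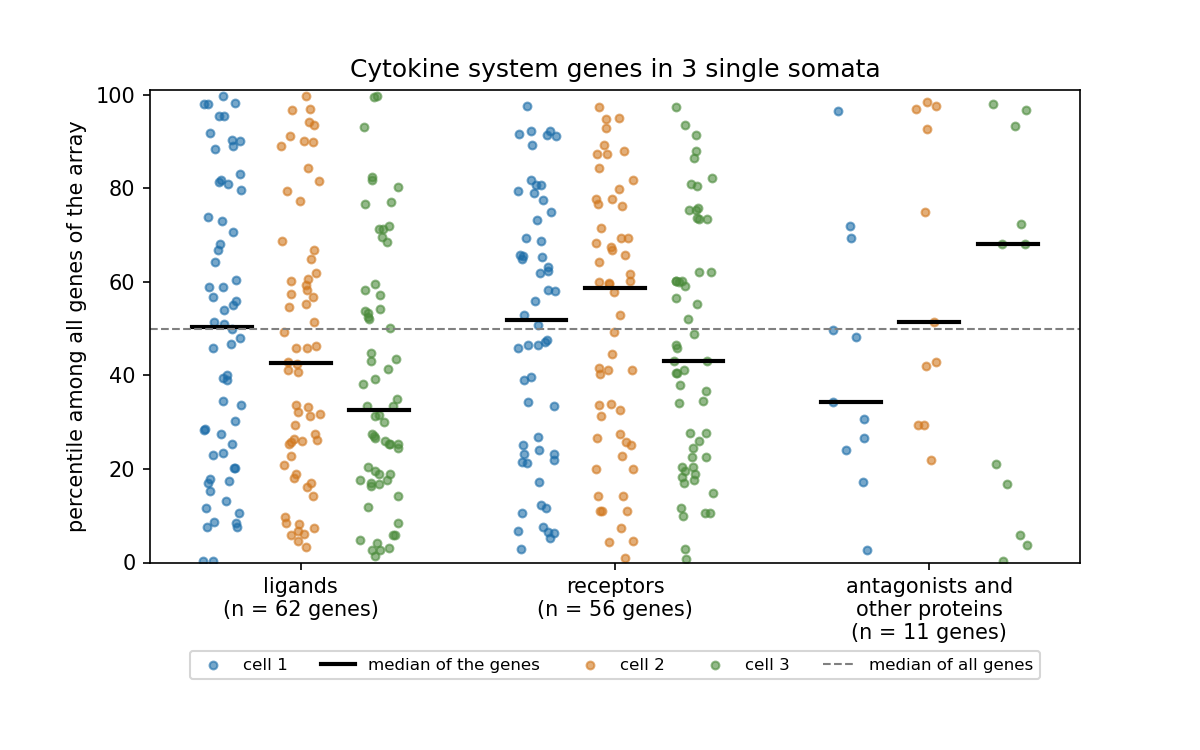
Percentile of each cytokine system gene (vertical axis, percentile among all genes of the array) by role and cell. Points are genes, black bars are their medians and the dashed line is the median of all genes; the ligand medians lie at 50.4, 42.6 and 32.5 and the receptor medians at 51.8, 58.7 and 43.1 in cells 1, 2 and 3.

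The direction differed between families. Among interferons, the 5 receptors stood above the 3 ligands by 50.5, 38.7 and 23.0 percentile points in cells 1, 2 and 3, the widest gap of the 4 families. In the TNF superfamily the order was the other way round: the 7 ligands stood above the 14 receptors by 30.9, 21.0 and 7.17 points. The 25 interleukin receptors were below the 24 interleukin ligands by 1.997 points in cell 1 and above them by 23.7 and 20.2 points in cells 2 and 3. The 12 chemokine receptors differed from the 28 chemokine ligands by 21.7, -7.21 and 0.22 points, so that no order held across the cells.

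Most of the system was not above background in any soma. Of the 129 genes, 18 (13.95%) were above background in at least 1 cell, against 17.3% of all genes and 11.8% of the silent genes. By cell, 10, 9 and 9 members were above background, or 7.75%, 6.98% and 6.98%, against 8%, 5.7% and 11.3% of all genes in cells 1, 2 and 3. In all 3 cells, 3 members (2.33%) were above background, against 2.19% of all genes. The shares of the members lay close to those of all genes, except in cell 3, where theirs was the smaller. Of the 18, 9 were ligands, 5 were receptors and 4 were of the third role. With background at the 99th percentile of the silent genes 5 members passed, and 34 at the 90th. For these 2 settings no share over all genes is given here. Of the 11 that passed in 1 cell alone, Il16, Ccl21 and Tnfrsf25 fall outside the rule for named genes and are named after their values were seen. They passed in cell 1, at 10.23, 10.23 and 9.60 log2.

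**Figure D2:**
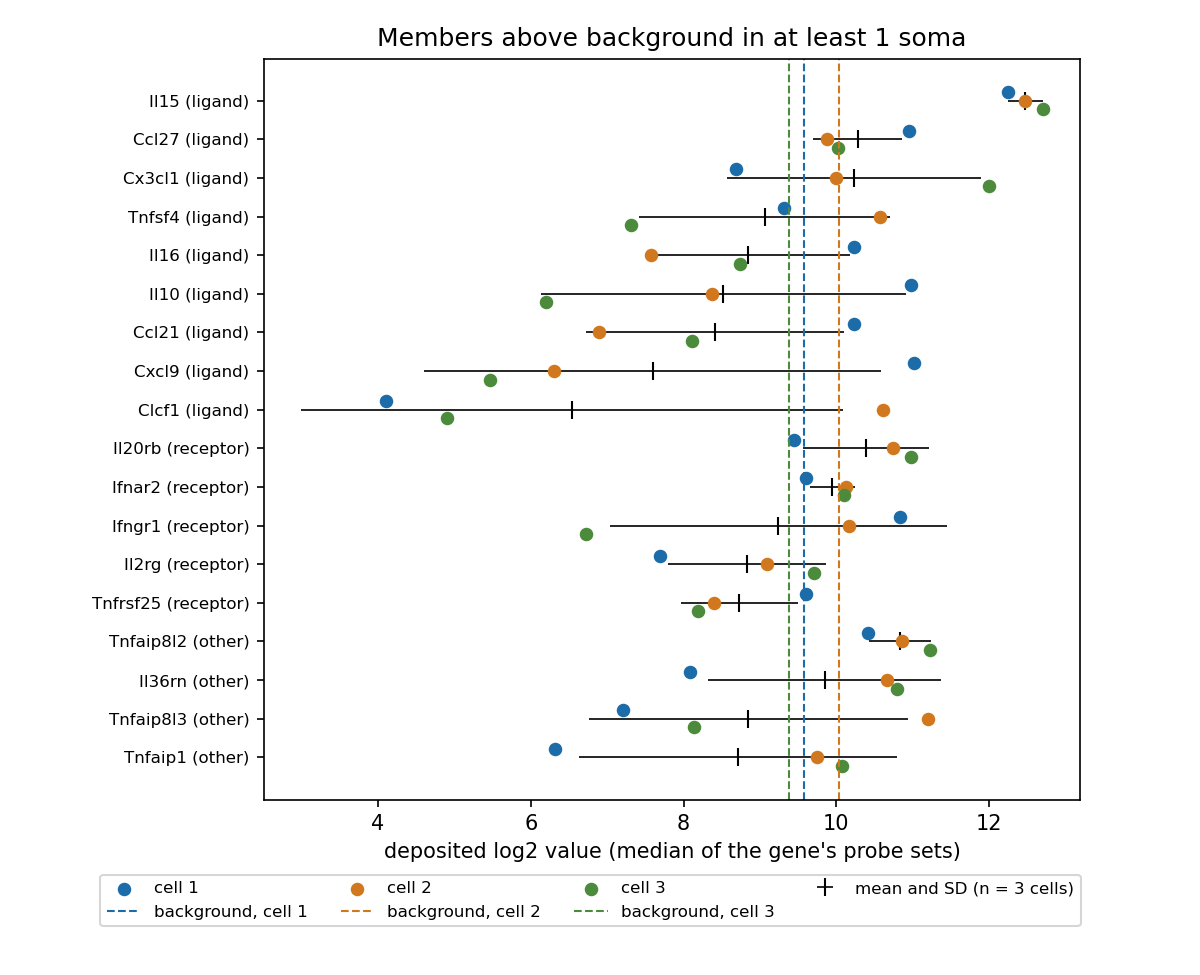
Deposited log2 value (horizontal axis) of the 18 members above background in at least 1 cell. Coloured points are the cells, dashed lines the background of each array (9.58, 10.03 and 9.38 log2), and black bars the mean and SD over 3 cells; Il15 lies clear of all lines, and 11 genes pass background in 1 cell alone.

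Il15, a cytokine that sustains natural killer and memory T cells, was the brightest member in each cell. It read 12.24, 12.47 and 12.70 log2 in cells 1, 2 and 3, at percentiles 99.8, 99.8 and 99.8, and its range after quantile normalisation was 0.13 log2. Its single probe set is of the type that matches several transcripts of 1 gene. The silent milk protein gene Csn1s1 read almost as high, at 12.17, 12.46 and 11.91 log2, so that a reading of this size in every cell was also given by a gene that neurons are not known to use.

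Cx3cl1, the chemokine of neurons, was second among the ligands by median percentile. It read 8.69, 9.996 and 12.0004 log2, at percentiles 83.0, 94.1 and 99.4. Cell 3 alone passed its background, since 9.996 in cell 2 lies just under 10.03. Ccl27, a chemokine of skin, read 10.95, 9.87 and 10.02 log2 and passed background in cells 1 and 3. Its gene overlaps Il11ra1 in the RefSeq table, and Il11ra1 read at percentiles 26.9, 65.7 and 52.0.

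The next ligands by median percentile were Tnfsf4 and Il2. Tnfsf4, the OX40 ligand that costimulates T cells, read 9.31, 10.57 and 7.31 log2 and passed background in cell 2 alone. Il2, the T-cell growth factor, read at percentiles 88.4, 91.2 and 44.8 and passed in no cell. Cells 1 and 2 read high for both genes and cell 3 read near the middle of its array.

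At the other end stood Il6, Clcf1 and Cxcl11. Il6, the inflammatory cytokine that acts through gp130, read at percentiles 0.28, 29.5 and 2.69 and was the lowest ligand by median. Cxcl11, a chemokine induced by interferon, read at 27.5, 7.27 and 5.81. The chemokines Ccl2, Ccl7 and Ccl11, which attract monocytes and eosinophils and lie next to each other in the genome, stayed between percentiles 16.9 and 33.7 in all 3 cells.

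Il20rb, Ifngr1 and Ifnar2 led the receptors. Il20rb, a chain of the receptors for Il19, Il20 and Il24, read 9.45, 10.74 and 10.98 log2 and passed background in cells 2 and 3. Ifngr1, the chain that binds interferon gamma, read 10.83, 10.16 and 6.73 log2, with cells 1 and 2 above background and cell 3 at percentile 37.9. Ifnar2, the chain that binds type I interferons, read 9.60, 10.13 and 10.10 log2, above background in every cell but by only a small margin in cell 1. This rests on 1 of its 2 probe sets, at 11.10, 12.07 and 11.94 log2, since the other read 8.10, 8.19 and 8.26, under background in each cell. Without probe sets of ambiguous type, which moved background itself, 0 receptors passed in all 3 cells. The type counted as ambiguous here includes sets that match several transcripts of 1 gene, such as that of Il15.

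Il22ra2 and Il2rg followed. Il22ra2, a soluble protein that binds Il22, read at percentiles 68.6, 93.0 and 87.9 and passed in no cell. Il2rg, the common gamma chain shared by the receptors for Il2, Il4, Il7, Il9, Il15 and Il21, read 7.70, 9.10 and 9.71 log2 and passed in cell 3. Il2rb, the beta chain for Il2 and Il15, read at percentiles 39.0, 11.0 and 25.9.

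The lowest receptors were Ccr1, Tnfrsf1b and Tnfrsf9. Ccr1, a receptor of inflammatory chemokines, read at percentiles 39.6, 1.06 and 0.77. Tnfrsf1b, the TNF receptor found mainly on immune and endothelial cells, read at 2.88, 4.42 and 17.6, and Tnfrsf9, a costimulatory receptor of T cells, at 6.81, 4.66 and 10.5. Tnfrsf9 and Tnfrsf1b were low in every cell.

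Among the 11 remaining genes, Tnfaip8l2 and Il36rn read highest. Tnfaip8l2, a negative regulator of immune signalling, read 10.42, 10.85 and 11.22 log2 and was in the top 5% of each array. Its gene overlaps Lysmd1 in the RefSeq table. Il36rn, the antagonist of the Il36 receptor, read 8.08, 10.66 and 10.80 log2, above background in cells 2 and 3, and its gene overlaps Il36b. Tnfaip1, an adaptor of a ubiquitin ligase, read 6.32, 9.75 and 10.07 log2 and passed in cell 3, and Tnfaip2 passed in no cell at percentiles 69.4, 51.5 and 68.2. The lowest by median were Tnfaip8, Tnfaip6 and Tnfaip8l1, with medians of 2.65, 17.3 and 26.6.

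In the top 5% of an array stood 14 members (10.9%) in at least 1 cell, against 9.91% of all genes. Il15 and Tnfaip8l2 were there in all 3 cells (1.55%, against 1.39% of all genes). By role, 9 of 62 ligands and 2 of 56 receptors reached the top 5% at least once. The receptors were Il20rb and Ifngr1. Without cell 1, 9 members reached it at least once and 4 in both other cells. For these counts no share over all genes is given here.

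Single genes differed between the somata about as often among the members as over all genes. After quantile normalisation, 41 of the 129 members (31.8%) had a range of at least 2 log2 over the cells, which is 4-fold, against 31.3% of all genes. By role the count was 24 of 62 ligands, 13 of 56 receptors and 4 of the 11 others, and the median range was 1.64, 1.30 and 1.79 log2, against 1.46 over all genes. Without cell 1 the count over all members was 12, against 28 without cell 2 or without cell 3. A range over 2 cells cannot exceed that over 3, and no such count over all genes is given here. Over all genes, too, cells 2 and 3 were the most alike (Pearson 0.68, against 0.47 for cells 1 and 2 and 0.44 for cells 1 and 3). Of the 41 members with a range of at least 2 log2, 11 were above background in at least 1 cell.

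Clcf1, a cytokine of the Il6 family that acts through the Cntf receptor, had the largest range, 6.60 log2. It read 4.11, 10.61 and 4.90 log2, among the dimmest genes in cells 1 and 3 and at percentile 96.9 in cell 2. Its gene overlaps Rad9a in the RefSeq table. Tnfsf9, the 4-1BB ligand, was also highest in cell 2, at 9.29 log2 against 5.36 and 6.86 in cells 1 and 3, but stayed under background.

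Cxcl9, a chemokine induced by interferon gamma, read 11.01, 6.31 and 5.47 log2 and was above background in cell 1 alone, at percentile 98.2. Il10, the cytokine that limits inflammation, read 10.98, 8.38 and 6.20 log2 and was likewise highest in cell 1. Il36b, a cytokine of epithelia, read 8.56, 6.38 and 4.65 log2, under background in each cell. Cell 1 was also the cell in which Tyrobp, C1qc, Csf1r and Itgam passed background, while P2ry12, Tmem119, Aif1, Ctss, C1qb and Laptm5 were lowest there. The part of other cell types in the readings of Cxcl9, Il10 and Il36b was not tested.

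Ifngr1, Ccr10, Ifnlr1, Cxcr1 and Il1rl2 varied most among the receptors. Ccr10, a receptor for Ccl27 and Ccl28, read 9.53, 6.33 and 5.46 log2, and its gene overlaps Cntnap1 in the RefSeq table. Ifnlr1, the receptor chain for interferon lambda, read 8.36, 7.04 and 4.68 log2, Cxcr1, a receptor for neutrophil chemokines, read 9.20, 7.77 and 5.79, and Il1rl2, the Il36 receptor, read 8.45, 9.10 and 6.07. All 5 were lowest in cell 3. In the third role, Tnfaip8l3, a carrier of phosphoinositides, read 7.21, 11.20 and 8.13 log2 with cell 2 highest. Tnfaip8 read 4.82, 6.94 and 4.11 and Il1rn, the antagonist of Il1, 6.60, 6.97 and 5.01.

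Counted over all members, 10 stood at least 2 log2 above both other cells in cell 1 (7.75%, against 6.82% of all genes), 4 in cell 2 (3.10%, against 2.26%) and 0 in cell 3 (against 1.82%). In cell 1 these were 8 ligands, namely Ccl21, Cxcl9, Cxcl13, Il10, Il12a, Il23a, Il36b and Tnfsf10, and the receptors Ccr1 and Ccr10. In cell 2 they were Clcf1, Tnfsf9, Tnfaip8 and Tnfaip8l3. Ccl21, Cxcl13, Il12a, Il23a and Tnfsf10 are named here after their values were seen.

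**Figure D3:**
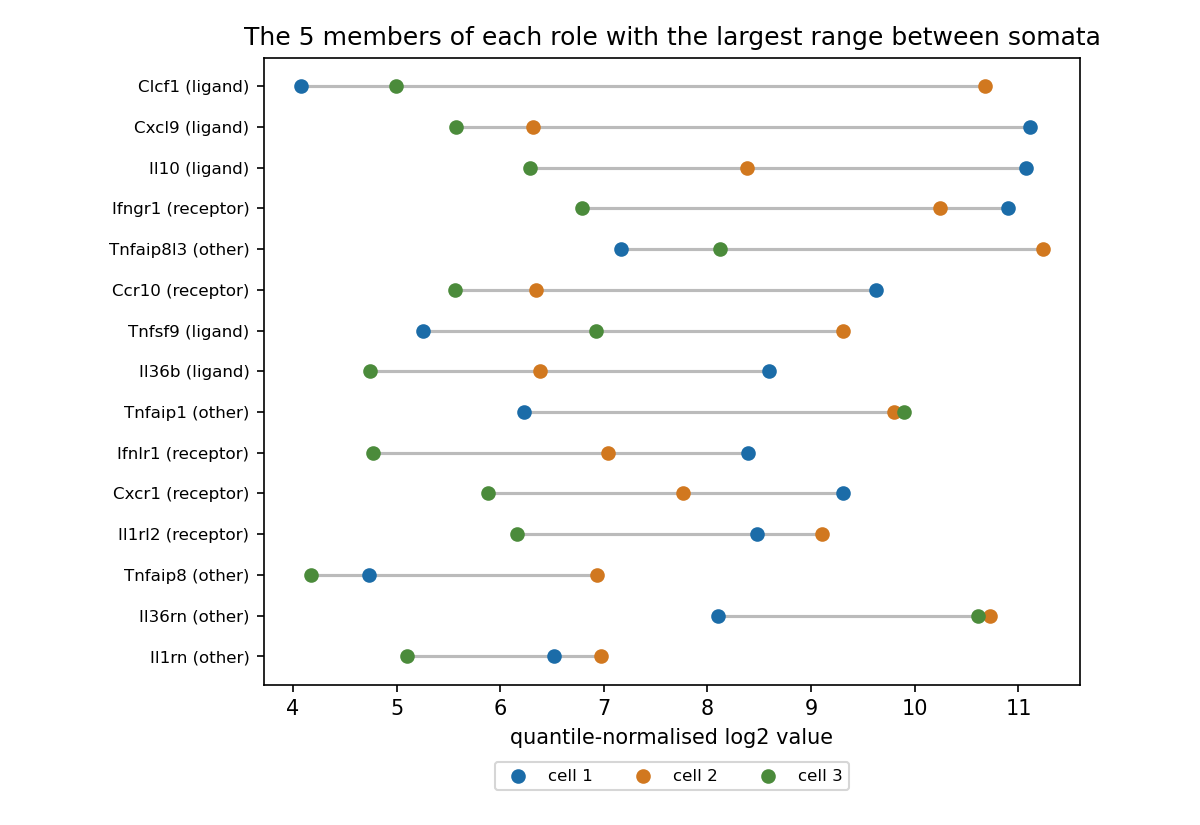
Quantile-normalised log2 value (horizontal axis) of the 5 members of each role with the largest range over the cells. Points are cells and grey lines join the lowest to the highest; the ranges run from 1.87 log2 for Il1rn to 6.60 log2 for Clcf1, and cell 1, cell 2 or cell 3 can be the extreme cell.

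Across the 129 members, the correlation between cells was 0.43 for cells 1 and 2, 0.45 for cells 1 and 3 and 0.67 for cells 2 and 3 (Pearson, with Spearman values of 0.39, 0.37 and 0.62). Over all 14218 genes the Pearson values were 0.47, 0.44 and 0.68. These are correlations across genes, which share probes and array type, and genes are not independent replicates.

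Ligand and receptor of a pair were next compared within each cell, for 44 pairs whose genes both carry a probe set, out of 71 pairs listed. The receptor stood above the ligand in all 3 cells for 10 pairs, the ligand above the receptor for 11, and the order differed between cells for 23. Both genes stood above percentile 50 in all 3 cells for 2 pairs, Cxcl13 with Cxcr5 and Tnfsf4 with Tnfrsf4. The Cxcr5 probe sets disagreed, at 81.8, 28.0 and 41.3 and at 71.5, 96.3 and 94.97 among all probe sets, so that by the first alone this pair would not hold in cells 2 and 3. For 25 pairs this held in no cell, and in no cell were both genes of a pair above background.

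Cx3cl1 stood above Cx3cr1 in every cell, with Cx3cr1 at percentiles 17.2, 68.4 and 75.8 beside 83.0, 94.1 and 99.4 for the ligand. Cell 1 was the low cell for both genes. Ifng, interferon gamma, was low at 30.2, 20.9 and 1.28 and stood below Ifngr1 in every cell. Il6 was likewise below the signalling chain Il6st (gp130) at 47.5, 59.6 and 40.6, while the binding chain Il6r was low too, at 7.69, 14.2 and 20.3. Tnf read at 66.7, 61.9 and 31.6, above Tnfrsf1b in every cell, and below its broadly expressed receptor Tnfrsf1a (46.6, 77.7 and 60.3) in cells 2 and 3.

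Il1b, the inflammasome product, read at percentiles 53.9, 79.5 and 80.3 and stood above its receptor Il1r1 (46.6, 31.3 and 73.4) in every cell. Tnfsf12, or TWEAK, read at 90.4, 46.3 and 77.0 and also stood above its receptor Tnfrsf12a (25.2, 40.2 and 59.1). Cxcl12, the chemokine that guides migrating neurons, was low at 28.6, 32.2 and 17.6, beside 73.3, 11.0 and 36.7 for its receptor Cxcr4. Ccl2 read at 28.3, 33.7 and 31.3 and its receptor Ccr2 at 50.7, 25.1 and 9.95. The order of Cxcl12 and Cxcr4, and of Ccl2 and Ccr2, differed between cells.

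The order also differed between cells for Il4, Il10, Ifnb1 and Clcf1 and their receptors. Il4, the T helper cytokine, read at 68.1, 26.2 and 71.4 beside Il4r at 61.8, 41.2 and 60.3. Il10 read at 98.1, 77.2 and 25.3 beside Il10ra at 80.8, 76.3 and 56.5. Ifnb1, interferon beta, read at 55.0, 4.66 and 39.2 beside Ifnar1 at 45.8, 59.6 and 40.6. Clcf1 exceeded Il6st in cell 2 alone.

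**Figure D4:**
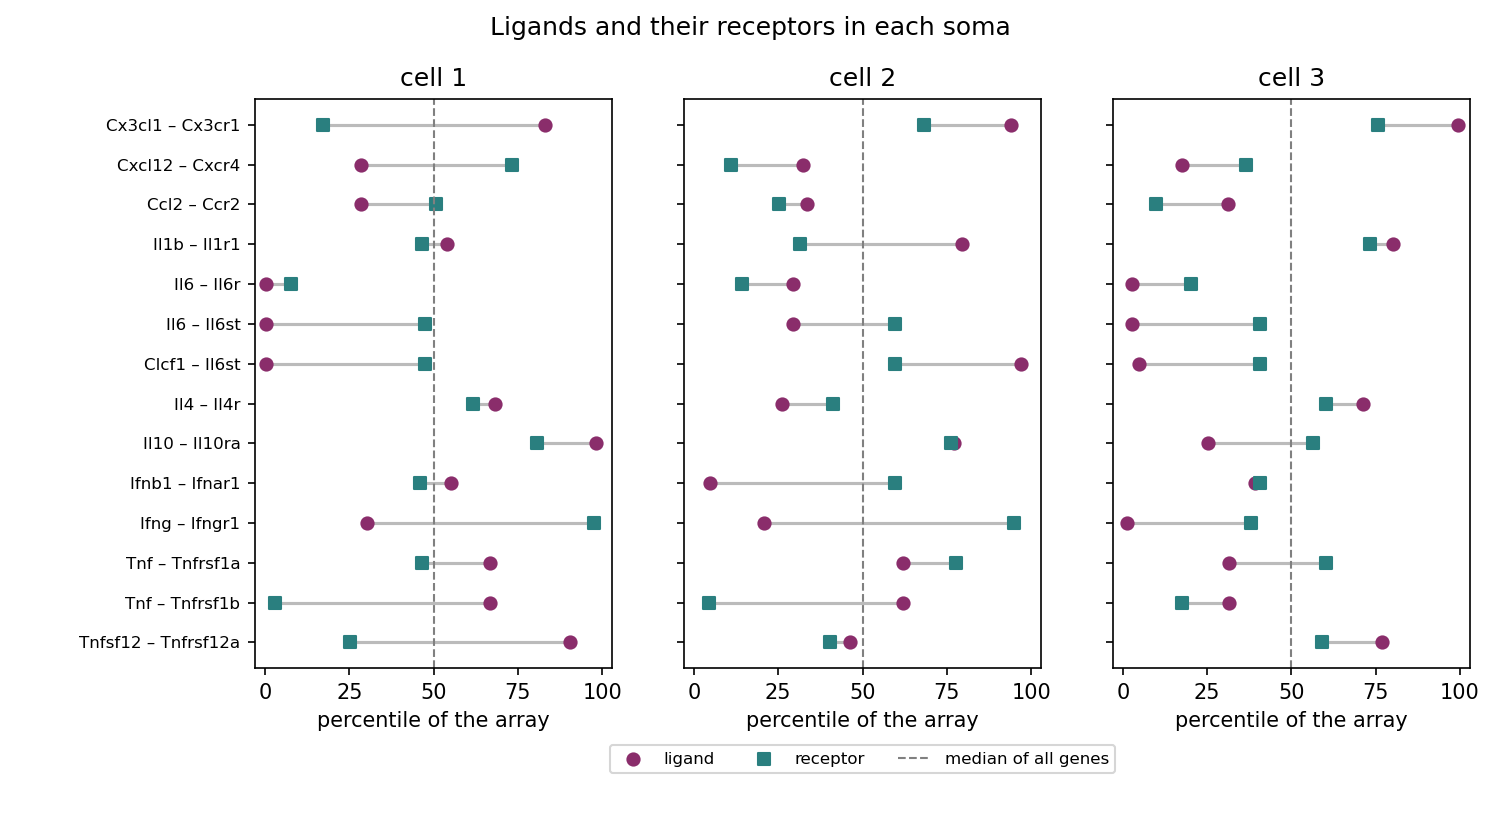
Percentile of ligand (circle) and receptor (square) for 14 pairs, 1 panel per cell, with the median of all genes dashed. Ifng lies left of Ifngr1 and Cx3cl1 right of Cx3cr1 in all 3 panels, while pairs such as Cxcl12 with Cxcr4 change order; distances between 2 genes include differences between their probes.

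Of the members, 102 had 1 probe set and 27 had 2 or more. Within a gene the median percentiles of the probe sets lay apart by 34.5 points (median over the 27 genes), against 33.4 points over the 4526 such genes on the array. The values that follow are percentiles among all 20832 probe sets. Ifnar1, the second chain of the type I interferon receptor, had 6 probe sets, and their medians ran from 0.69 to 94.8. The brightest of them read at 98.7, 94.8 and 93.5 and the dimmest at 0.27, 0.69 and 34.2. The level given for Ifnar1 is thus a middle of readings that disagree.

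For Ifnar2 the probe sets differed in level, at 97.8, 99.3 and 98.9 and at 70.6, 72.1 and 73.1, and both were lowest in cell 1. The Cxcl9 probe sets both were highest in cell 1 and lowest in cell 3, at 99.4, 49.99 and 26.0 and at 92.8, 12.7 and 6.32. The Tnf probe sets opposed each other, with 83.8, 31.2 and 5.51 for the first and 39.4, 83.4 and 71.1 for the second. Il6st, with 4 probe sets, held medians from 18.8 to 73.6, and its sets were highest in different cells. Cxcr4 had 3 sets, all of ambiguous type, with medians from 18.7 to 71.4. Il1r1 had 3, with medians from 34.2 to 68.5, and Cxcl12 had 3, from 24.99 to 59.4. Those of Il10ra lay at 68.3 and 75.4, those of Tnfaip6 at 20.0 and 21.4, and the 4 of Tnfaip2 ran from 20.1 to 75.8.

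In the RefSeq table, 23 members overlap another protein-coding gene, and besides those already given these include Cxcl10, Cxcl11, Cxcr5, Il1rn, Il2, Il36b, Il6r, Tnfaip8l1, Tnfrsf1b and Tnfsf12. The share of all genes with such an overlap is not given here. Neighbours in the genome could read far apart. In the RefSeq gene order, 54 members fell into 18 neighbourhoods with at most 2 other protein-coding genes between members. Next to Cxcl9 lie Cxcl10 and Cxcl11, which read at percentiles 33.7 and 27.5 in cell 1, where Cxcl9 stood at 98.2. Next to Cx3cl1 lie Ccl17 at 8.71, 84.4 and 68.5 and Ccl22 at 20.1, 8.47 and 16.7. Ifnar2 lies beside Il10rb, Ifnar1 and Ifngr2, whose percentiles were 21.3, 76.6 and 59.9, then 45.8, 59.6 and 40.6, then 80.7, 33.9 and 46.5. These neighbours, and Il2rb, Ccl7, Ccl11 and Il11ra1 above, were named after their values were seen.

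Promoters of 100 members were in the RefSeq table. The NF-kB motif was in 18 (18%) of them, against 4.38% of 18999 promoters of protein-coding genes, and the ISRE was in 9 (9%), against 3.63%. The GAS was in 12 (12%), against 8.26%, and the TATA box in 24 (24%), against 13.1%. TATA boxes were in 16 of 47 ligand promoters (34.04%) and in 5 of 43 receptor promoters (11.6%). Related genes such as Cxcl1, Cxcl2 and Cxcl6 share sequence, so that promoters are not independent of each other.

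Members with an NF-kB motif had the lower median in each soma. The 18 had median percentiles of 34.3, 31.9 and 36.3 in cells 1, 2 and 3, and 0 of them were above background in any cell. The 82 without the motif had medians of 51.2, 52.2 and 39.4, and 14 were above background in at least 1 cell. Over all genes of the array with a promoter, the 579 with the motif had medians of 48.7, 51.2 and 51.01 and the 11122 without it 50.4, 50.04 and 50.06, and 17.1% and 17.4% passed background in at least 1 cell. For the ISRE the medians were 47.5, 32.5 and 40.6 with the motif and 51.0, 44.6 and 38.2 without it, so that no single order held. The order also changed between cells for the other 2 motifs. For the GAS the medians were 26.3, 33.9 and 48.5 with it and 50.9, 47.6 and 38.1 without it. For the TATA box they were 36.6, 49.3 and 37.4 with it and 50.9, 42.2 and 41.9 without it.

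Genes downstream of these receptors were counted in the same way, beside 8%, 5.7% and 11.3% of all genes above background in cells 1, 2 and 3. Of 23 genes of the Jak and Stat pathway, 1, 3 and 2 passed. Of 31 genes of NF-kB, TNF and Il1 signalling 4, 1 and 3 passed, and of 35 genes of the interferon response 4, 2 and 3. In all 3 cells, each list had 1 gene above background, against 2.19% of all genes and 2 of the 144 silent genes. Pias1, a SUMO ligase, read 10.18, 10.47 and 10.74 log2. Myd88, the adaptor of the Il1 and Toll-like receptors, read 13.75, 13.21 and 13.05 log2, at percentiles 99.98, 99.92 and 99.85. Rsad2 (viperin), an antiviral protein induced by interferon, read 10.98, 11.81 and 11.27 log2. The medians of the lists were 46.9, 63.0 and 56.9 for Jak and Stat, 44.3, 41.7 and 49.5 for NF-kB, TNF and Il1 signalling, and 39.9, 54.7 and 36.7 for the interferon response.

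Cytokines and receptors whose symbols the name rule does not reach had the same order of medians, receptors over ligands. These lists were drawn up with earlier results of these data known and were read on the same 3 arrays. The order is therefore not independent of that of the members. The 18 related ligands, such as Lif, Csf1 and Mif, had medians of 36.1, 32.1 and 42.5 in cells 1, 2 and 3, and 1, 0 and 1 of them were above background. The 18 related receptors, such as Lifr, Cntfr and Csf1r, had medians of 54.2, 51.6 and 57.7, and 1, 1 and 3 were above background. Of all genes, 8%, 5.7% and 11.3% were above background in cells 1, 2 and 3. No gene of either list was above background in all 3 cells.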

How the data were processed

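In all, 3 arrays of an Affymetrix rat expression platform were used, with 1 soma each. Per the labels, RNA was amplified as antisense RNA, the final round took 14 h, and 5 µg were labelled with biotin. The authors deposited log2 values for 31099 probe sets, and the submitters' processing notes name RMA 2.0. The published array methods describe dendrites and tissues and were not taken as stated for the somata. No genome build was given in these sources.

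Gene names came from the platform annotation. Probe sets with 1 symbol were summarised by their median per gene, ranked within each array (ties at the mean rank), and quantile-normalised over genes for ranges. Roles and families followed from symbols. The members and lists were chosen with earlier results of these data known. Named genes were those above background in at least 2 cells, the 5 highest, 3 lowest and 5 widest-ranging of each role, the listed pairs, and downstream genes above background in all cells. With 1 group no test was run. The number of arrays limits the precision. The steps were tested on simulated data, with Python 3.11.15, numpy 2.4.6, pandas 2.3.3 and scipy 1.17.1. Alternatives covered the probe-set summary, the genes ranked, the decoy or soluble receptors, the background, the scaling and each cell left out.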

Additional observations from a re-analysis of the deposited data

How the results depend on the processing

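Ligands minus receptors stayed below 0 in all 10 alternatives, from -13.4 to -0.98 percentile points. The value of -0.98 came from ranking only genes over the median gene, a filter on the level itself. Among these genes the median percentile was 50.7 for ligands and 51.7 for receptors, so that the difference nearly vanished. Leaving out 1 cell gave -13.4 to -6.01. Without the decoy or soluble receptors the difference was -7.04, and the receptor median was 48.9. The median percentiles of ligands and of receptors moved by less than the SD between cells in every alternative run. Counts above background followed the threshold. For the counts of members in this section no share over all genes is given. With background at the 90th percentile of the silent genes, 34 members, 17 ligands and 13 receptors passed in at least 1 cell, and 5, 2 and 2 in all cells. At the 99th percentile the counts were 5, 2 and 1 in at least 1 cell, and 1, 1 and 0 in all. With olfactory, vomeronasal and taste receptors as the only silent genes they were 31, 15 and 12, and 5, 2 and 2. With the brightest probe set of each gene, 9 receptors passed in at least 1 cell and 2 in all. Without probe sets of ambiguous type, 1 member, 0 ligands and 0 receptors passed in all cells. Here the Il15 probe set was dropped, although its type matches several transcripts of 1 gene, and background was reset. Leaving out 1 cell gave 13 to 15 members, 5 to 8 ligands and 4 to 5 receptors in at least 1 cell, and 4 to 5, 1 to 2 and 1 to 2 in both that stayed. In the top 10%, 25 members stood in at least 1 cell and 5 in all. Leaving out 1 cell gave 9 to 13 members in the top 5% at least once and 2 to 4 in both cells. The count of members with a range of at least 2 log2 was 42 on the values as deposited and 41 after centring and scaling, 11 among the 18 genes above background in at least 1 cell, a choice that favours wide ranges, and 12 to 28 with 1 cell left out. The cause of the other shifts was not tested. Of the 52 named genes, 9 moved by more than their SD between cells with the brightest probe set, among them Ifnar1, to a mean percentile of 93.9, and Il6st, to 69.6. Ccl2, Ccl27, Il15, Il20rb and Tnfaip8l2 were also among the 9. Each of these has 1 probe set, so that its own value stayed and its percentile moved with the values of other genes. With 3 arrays and a background that 5% of the silent genes exceed, low readings cannot be told from absent RNA. No paired analysis was possible because the labels give a single group.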
